A study of Homo sapiens with 24 samples.

Results

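Feedback inhibitors of WNT signaling were examined as a set of 10 genes, *AXIN2*, *NKD1*, *NKD2*, *RNF43*, *ZNRF3*, *NOTUM*, *APCDD1*, *DKK1*, *DKK4* and *TRABD2A*, out of the 58051 gene identifiers counted in each library. The genes were chosen by name, for their known role in the pathway, with earlier results of these data known. All 10 were found in the files. RNA came from HT29, HCT116 and SW480, which are established human colorectal cancer cell lines, and each line was represented by 2 wild-type (WT) and 2 knockout (KO) clones. Sequencing each clone in a round A and a round B gave 24 libraries, 4 per line and genotype. The KO clones carried a biallelic, frameshift-inducing exon deletion in *CTNNB1*, which encodes β-CATENIN. The WT clones had been exposed to CRISPR/Cas9 and cloned in the same way but kept *CTNNB1* without this deletion.

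All groups of a line derived from parental cells with a mutation that activates the WNT pathway. It is an inactivating *APC* mutation in HT29 and SW480 and a gain-of-function *CTNNB1* mutation in HCT116. In the HCT116 KO clones that same gene was inactivated. The HT29 groups were the WT clones 11 and 40 and the KO clones 28 and 38. HCT116 had the WT clones 4 and 6 with the KO clones 44 and 47, and SW480 had the WT clones 4 and 5 with the KO clones 17 and 21. SW480 KO clones become senescent upon prolonged culture, and the culture stage at which RNA was taken is not given in the sources used here. A library is named here by clone and round, as in KO 38B. Only 2 clones stood for a genotype in each line, and p-values over libraries treat both rounds of a clone as separate samples.

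In WNT/β-CATENIN signaling, β-CATENIN that escapes the cytosolic destruction complex enters the nucleus, binds TCF/LEF factors and raises transcription of target genes. Several targets encode proteins that dampen the same pathway, which makes a negative feedback loop. AXIN2 is a scaffold of the destruction complex, NKD1 and NKD2 bind Dishevelled, RNF43 and ZNRF3 are ubiquitin ligases that remove FZD receptors from the cell surface, and APCDD1 is a membrane glycoprotein that binds WNT ligands. NOTUM is a secreted enzyme that strips the lipid from WNT proteins, DKK1 and DKK4 are secreted ligands of the LRP5 and LRP6 co-receptors, and TRABD2A is a membrane protease that cleaves WNT proteins. In the colon, such genes mark the WNT-active crypt base and are often high in tumors with activated WNT signaling.

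Promoter sequences are shown for the 2 members in which the letters of a TCF/LEF core were found. RefSeq promoters on GRCh38.p14, reaching from 250 bases before to 50 bases after the transcription start, were given for 5 of the 10 members, namely *NKD2*, *RNF43*, *APCDD1*, *DKK1* and *TRABD2A*. They were searched on both strands for CTTTGA and CTTTGT, which cannot overlap as the same letters. Of 35116 promoters, 12.92% held CTTTGA, 16.07% held CTTTGT and 26.17% held either. *DKK1* held 3 matches, each of the 2 *RNF43* promoters held 1, and the windows of *NKD2*, *APCDD1* and *TRABD2A* held none. Capitals below mark the matches, in the orientation of the gene. A match describes the letters and is not a site shown to be bound.
DKK1, chr10:52314031-52314330, plus strand: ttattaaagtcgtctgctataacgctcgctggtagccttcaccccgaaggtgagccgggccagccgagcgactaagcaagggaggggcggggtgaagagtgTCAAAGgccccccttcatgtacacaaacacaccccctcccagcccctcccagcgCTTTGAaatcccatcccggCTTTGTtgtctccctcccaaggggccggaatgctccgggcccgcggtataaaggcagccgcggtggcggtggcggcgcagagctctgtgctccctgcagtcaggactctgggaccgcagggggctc
RNF43, chr17:58417485-58417784, minus strand: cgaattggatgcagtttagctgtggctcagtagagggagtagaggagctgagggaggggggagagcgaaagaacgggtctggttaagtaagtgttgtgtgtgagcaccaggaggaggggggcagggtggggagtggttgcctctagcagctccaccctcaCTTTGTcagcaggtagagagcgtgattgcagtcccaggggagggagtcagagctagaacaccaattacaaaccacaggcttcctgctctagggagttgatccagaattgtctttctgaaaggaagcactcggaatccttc
RNF43, chr17:58402672-58402971, minus strand: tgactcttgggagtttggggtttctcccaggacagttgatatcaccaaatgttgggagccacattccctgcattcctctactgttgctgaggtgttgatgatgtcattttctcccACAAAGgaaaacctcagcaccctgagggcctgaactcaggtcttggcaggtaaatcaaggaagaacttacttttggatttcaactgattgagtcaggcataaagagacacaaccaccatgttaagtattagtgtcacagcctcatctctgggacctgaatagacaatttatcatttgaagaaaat
In *DKK1* the matches began 149, 95 and 76 bases before the start, and the first of them lay on the opposite strand. In *RNF43* they began 90 bases before the start of one promoter and, on the opposite strand, 135 bases before the start of the other.

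Values are gene counts that the authors divided by the size factor of each library, called normalized counts below. The libraries held 22297049 to 29068378 reads on genes (median 27486225), and 3 reads, taken as the floor, were worth 2.75 to 3.89 normalized counts. *CTNNB1* itself lay between 5883 and 50939.5 in the WT libraries and between 187 and 1312 in the KO libraries, so that 4.98% of the HT29 WT mean remained, 1.83% of the HCT116 and 2.18% of the SW480 WT mean. The epithelial genes *KRT8* and *KRT18* were at or above 23452 in all libraries, and *EPCAM* ran from 645 to 48704. *CDX1* was at 0 in every library except the HT29 KO libraries, which held 2.59 to 9.78. *CDX2* held 1.98 to 19.9 in HT29 and 52.7 to 1333 in the other lines. *VIL1* held 0 to 5.35 in HCT116, 0.919 to 40.5 in SW480 and 449 to 6740 in HT29. *CDH1* was below 86 in SW480 and held 1181 to 18417 in the other lines. Summed values of 7 markers of other cell types did not overlap between the HT29 genotypes, at 12.2 to 23.8 in WT and 28.2 to 90.1 in KO libraries, and most of the sum came from *COL1A1* (12.2 to 22.5 and 26.2 to 85.4). The part of this difference in the HT29 results was not tested. The sums overlapped in HCT116 (289 to 450.3 in WT and 328 to 389 in KO libraries) and in SW480 (181 to 428 and 241 to 371). The immune marker *PTPRC* stayed at or below 4.28 and *CD3E* at or below 6.76. Library KO 38B of HT29 stood apart with 6.61% of its reads in its 10 most abundant genes, against 4.51% to 6.15% in the other libraries.

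The first comparison asked which members changed when β-CATENIN was lost in each line. In SW480, 7 members were lower and 1 was higher in KO cells. In HT29, 3 were lower, in HCT116 2 were lower, and limma called none as higher in either of these lines. At an unadjusted p below 0.05 only *DKK1* was higher in HT29, where DESeq2 called it, and no member was higher in HCT116 by either tool. A gene was called (limma on log2 of the normalized count plus 1) with an adjusted p below 0.05 and an absolute log2(fold change) above 1. A test required 10 normalized counts or more in 4 or more of a line's 8 libraries, and 6 members met this in HT29, 8 in HCT116 and 9 in SW480. Over all genes tested, 0.402% were lower and 1.9% higher in HT29 KO cells, 1.89% and 3.17% in HCT116, and 6.76% and 10.7% in SW480. Members could pass this filter through the WT libraries alone, as *NOTUM* did in SW480. Members tested had a median log2 fold change of −0.84, −0.64 and −3.40 in HT29, HCT116 and SW480, whereas all genes tested had 0.03, −0.01 and −0.00419. In these bulk samples, fewer cells that express a gene and less RNA per cell cannot be told apart.

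**Figure D1:**
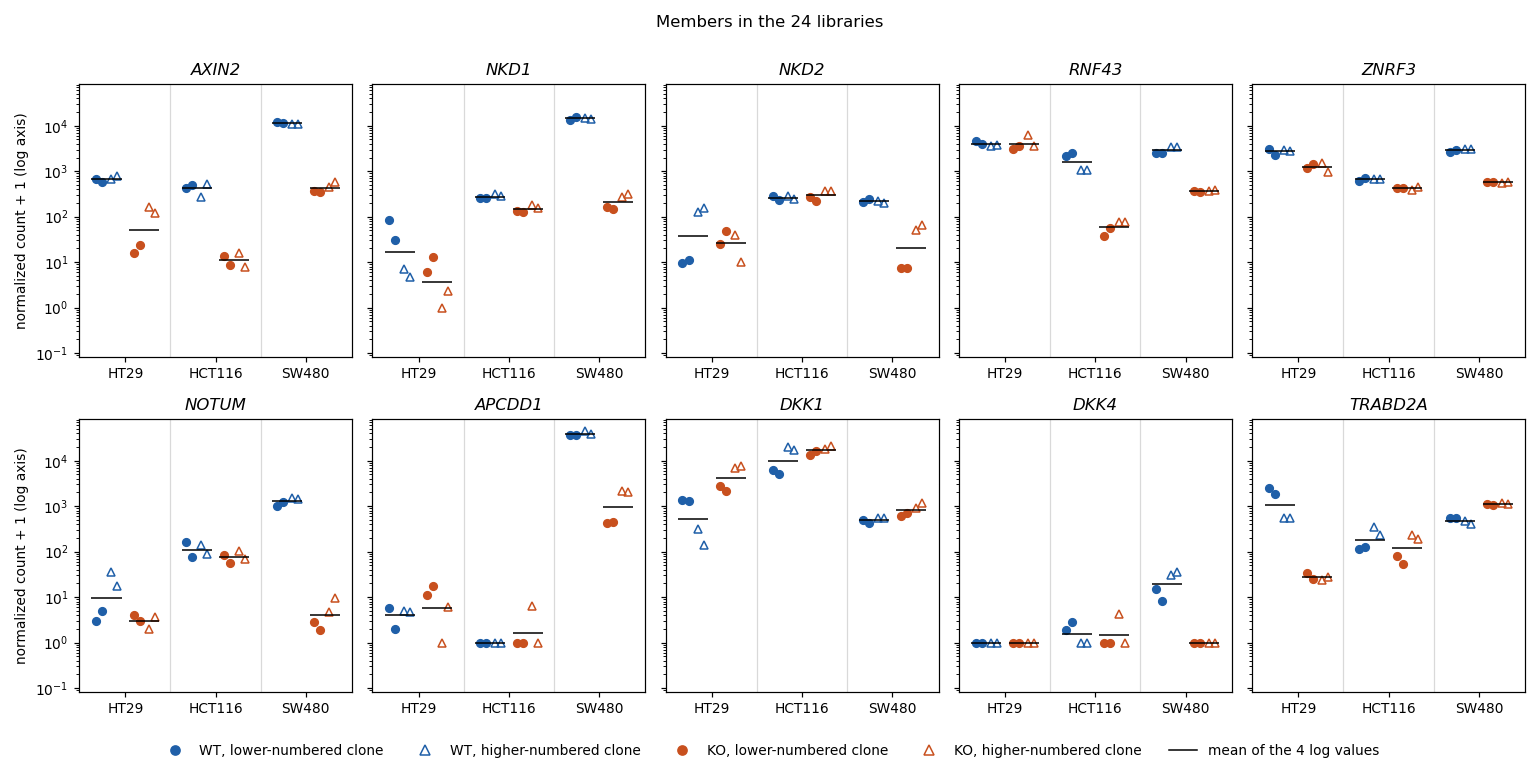
Normalized counts plus 1 of the 10 members on a log axis, with WT libraries in blue and KO libraries in orange for HT29, HCT116 and SW480. Filled circles and open triangles are the lower- and higher-numbered clone of a group, each with both rounds, and the bar is the mean of the 4 log values. *AXIN2* KO libraries lie below all WT libraries in each line, whereas *RNF43* falls away from WT in HCT116 and SW480 and overlaps with it in HT29.

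**Figure D2:**
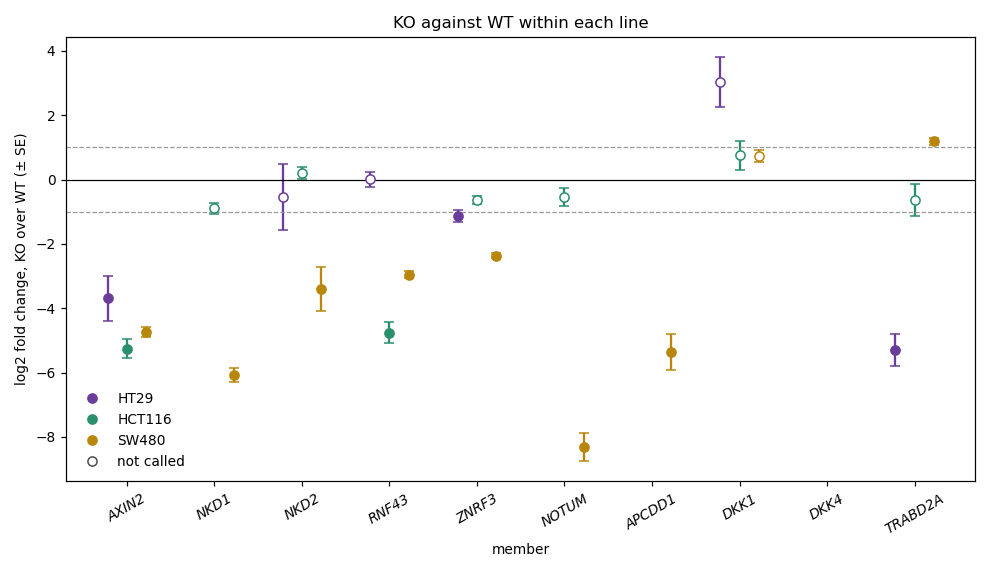
Log2 fold change of KO over WT with its standard error for the members tested in each line, on log2 of the normalized count plus 1. Filled points were called, open points were not, and dashed lines mark the fold change needed for a call. The points run from −8.32 for *NOTUM* in SW480 to 3.03 for *DKK1* in HT29, which was not called.

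All 4 KO libraries lay below all 4 WT libraries for 3 of the 6 members tested in HT29, 4 of the 8 tested in HCT116 and 7 of the 9 tested in SW480. The same held for 4.71%, 9.61% and 20.9% of all genes tested in these lines.

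Among the cytosolic inhibitors, *AXIN2* (ENSG00000168646, GRCh37 chr17:63524681-63557766, minus strand) was lower in KO cells of all 3 lines. In HT29 its WT libraries held 659 and 590 normalized counts in WT 11 and 671 and 779 in WT 40. Its KO libraries held 15.1 and 22.5 in KO 28 and 158 and 119 in KO 38. Both KO clones were below every WT library, but KO 38 retained more *AXIN2* than KO 28. HCT116 WT libraries held 266 to 531, against 6.66 to 15.0 after KO. SW480 WT libraries held 11049 to 12213, against 356 to 591 after KO.

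In HT29 *AXIN2* had a log2 fold change of −3.70 ± 0.70 (SE, adjusted p = 0.0321), which was −2.28 without KO 28 and −5.11 without KO 38. It was −5.25 ± 0.31 (adjusted p = 1.2e-06) for HCT116 and −4.74 ± 0.15 (adjusted p = 6.7e-09) for SW480. The HT29 call was lost with the clone as a random effect (adjusted p = 0.0601), with edgeR and TMM or RLE (0.0573 and 0.0569), with the round as a block (0.0630), with clone means within the line (0.698), and when any 1 WT library, KO 28A, KO 28B or either WT clone was left out (0.0564 to 0.187). It held with clone means and a spread pooled over the lines (0.0417). The annotation places 1316 exon bases of *AXIN2* in a second gene on the same strand, ENSG00000266076, which averaged 0.313 normalized counts.

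*NKD1* (ENSG00000140807, chr16:50582307-50683160, plus strand) showed its largest fall in SW480. There the WT libraries held 13438, 15425, 15104 and 14404 normalized counts, and the KO libraries 166 and 149 in KO 17 and 275 and 309 in KO 21. This was a log2 fold change of −6.08 ± 0.22 (adjusted p = 2.5e-08), leaving 1.54% of the WT mean. In HCT116, *NKD1* held 251 to 317 in WT libraries, against 125 to 182 after KO. The groups did not overlap, but the log2 fold change of −0.89 ± 0.17 (adjusted p = 0.00503) was smaller than a call required, and passed it without WT 4 (−1.02) or without KO 47 (−1.08). In HT29, *NKD1* was too low to be tested, with 85.5, 29.4, 5.93 and 3.76 in the WT libraries and 0 to 11.7 in the KO libraries, and the groups overlapped.

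*NKD2* (ENSG00000145506, chr5:1008917-1039058, plus strand), the paralog of *NKD1*, was called as lower in SW480 and was not called in the other lines. Its SW480 WT libraries held 211, 243, 224 and 196 normalized counts. The KO libraries held 6.58 and 6.42 in KO 17 and 49.5 and 63.4 in KO 21, so that both clones were below WT and differed from each other. The log2 fold change was −3.40 ± 0.69 (adjusted p = 0.00286), or −1.94 without KO 17 and −4.87 without KO 21, and was not called on clone means with the spread pooled over lines (adjusted p = 0.112). In HCT116 the WT libraries held 226 to 286 and the KO libraries 223 to 366, with a log2 fold change of 0.21 ± 0.18 (adjusted p = 0.493). In HT29, *NKD2* separated the WT clones, with 8.64 and 10.1 in WT 11 and 128 and 158 in WT 40, and the KO libraries lay between 9.08 and 47.9 (log2 fold change −0.54 ± 1.02, adjusted p = 0.817).

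At the receptor level, *RNF43* (ENSG00000108375, chr17:56431037-56494956, minus strand) was lower in KO cells of HCT116 and SW480. In HCT116 the WT libraries held 2195 and 2537 normalized counts in WT 4 and 1082 and 1089 in WT 6, whereas the KO libraries held 37.3, 55.6, 73.9 and 74.2. The log2 fold change was −4.76 ± 0.32 (adjusted p = 5.6e-06), and KO cells retained 3.49% of the WT mean. In SW480, *RNF43* held 2455 to 3359 in WT libraries, against 346 to 393 after KO, a log2 fold change of −2.96 ± 0.12 (adjusted p = 2.4e-08). In HT29 the WT libraries held 3613 to 4537 and the KO libraries 3089, 3518, 6346 and 3641, so that the groups overlapped with a log2 fold change of 0.0099 ± 0.23 (adjusted p = 0.988). On the other strand 345 exon bases of *RNF43* are shared with *TSPOAP1-AS1*, which averaged 5.54 normalized counts. On the same strand 4326 are shared with ENSG00000285897, which is not among the gene identifiers counted.

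*ZNRF3* (ENSG00000183579, chr22:29279560-29453476, plus strand), the paralog of *RNF43*, had non-overlapping groups in all 3 lines, with KO below WT. In HT29 the WT libraries held 3115, 2265, 2944 and 2796 normalized counts and the KO libraries 1170, 1419, 1531 and 967. HCT116 WT libraries held 618 to 697, against 382 to 460 after KO. SW480 WT libraries held 2672 to 3105, against 551 to 579 after KO.

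*ZNRF3* had a log2 fold change of −2.36 ± 0.07 (adjusted p = 3.1e-09) for SW480 and of −1.14 ± 0.19 (adjusted p = 0.0175) for HT29. Its log2 fold change of −0.64 ± 0.11 (adjusted p = 0.00391) in HCT116 did not reach the fold change of a call. The HT29 call was lost with the clone as a random effect (adjusted p = 0.151), with clone means within the line (0.504), and without WT 11A, WT 40A, WT 40B, KO 28A or either WT clone (0.0605 to 0.141). KO cells retained 45.7%, 64.2% and 19.4% of the WT mean.

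*APCDD1* (ENSG00000154856, chr18:10454632-10489946, plus strand) was abundant in SW480 and low elsewhere. The SW480 WT libraries held 36104, 37079, 44293 and 39398 normalized counts, and the KO libraries 419 and 458 in KO 17 and 2108 and 2038 in KO 21. The log2 fold change was −5.36 ± 0.56 (adjusted p = 9.3e-05), or −4.24 without KO 17 and −6.48 without KO 21. The KO clones differed by −2.24 ± 0.08 on the log2 scale (KO 17 minus KO 21, adjusted p = 8.6e-12). In HT29, WT libraries held 1.01 to 4.80 and KO libraries 0 to 16.6. In HCT116, *APCDD1* was at 0 in every library except KO 47A, which held 5.35. Its KO libraries were tested against WT in neither HT29 nor HCT116.

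Among the secreted and membrane-bound enzymes, *NOTUM* (ENSG00000185269, chr17:79910383-79919716, minus strand) had the largest fold change of the members tested. In SW480 the WT libraries held 997, 1217, 1502 and 1423 normalized counts, and the KO libraries 1.88, 0.917, 3.74 and 8.64. The log2 fold change was −8.32 ± 0.43 (adjusted p = 2.2e-07), −7.55 without KO 17 and −9.08 without KO 21, and KO cells retained 0.295% of the WT mean, near the floor. The size of this fold change depends on the number added before the log, with −7.25 after adding 5 and −8.79 after adding 0.1. *NOTUM* passed the filter in SW480 through its WT libraries alone. In HCT116 the WT libraries held 76.1 to 159 and the KO libraries 54.6 to 104, which overlapped (log2 fold change −0.55 ± 0.28, adjusted p = 0.228). In HT29, *NOTUM* was not tested. It held 1.92 and 4.05 in WT 11, 34.6 and 16.3 in WT 40, and 0.949 to 3.02 in the KO libraries.

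*TRABD2A* (ENSG00000186854, chr2:85048774-85134132, minus strand) was lower in HT29 KO cells and higher in SW480 KO cells. In HT29 the WT libraries held 2447 and 1828 normalized counts in WT 11 and 553 and 535 in WT 40, and the KO libraries held 32.2, 24.5, 22.8 and 27.2. The log2 fold change was −5.29 ± 0.50 (adjusted p = 0.00114). It was called in 23 of 24 alternatives, the exception being clone means within the line (adjusted p = 0.280), and was −4.31 without WT 11 and −6.27 without WT 40. In SW480 the WT libraries held 544, 542, 461 and 396, and the KO libraries 1113, 1047, 1164 and 1093. Here all KO libraries exceeded all WT libraries, with a log2 fold change of 1.19 ± 0.11 (adjusted p = 7.9e-06), which was not called on clone means with the spread pooled over lines (adjusted p = 0.341).

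In HCT116 *TRABD2A* differed between clones of 1 genotype, with 114 and 127 normalized counts in WT 4, 340 and 228 in WT 6, 80.6 and 52.8 in KO 44, and 233 and 188 in KO 47. The groups overlapped, and the log2 fold change was −0.64 ± 0.51 (adjusted p = 0.445). It was called only without KO 47 (−1.47, adjusted p = 0.0358) and was 0.20 without KO 44. *TRABD2A* shares 9 exon bases with *TMSB10* on the other strand, an abundant gene that was not called in any line (log2 fold change 0.58, −0.04 and 0.06 in HT29, HCT116 and SW480).

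Of the DKK proteins, *DKK1* (ENSG00000107984, chr10:54074041-54077802, plus strand) was the only member tested whose KO mean exceeded its WT mean in all 3 lines, although no line gave a call. In HT29 the WT libraries held 1346 and 1279 normalized counts in WT 11 and 309 and 137 in WT 40. The KO libraries held 2727 and 2204 in KO 28 and 6904 and 7818 in KO 38, which were all above WT. The log2 fold change was 3.03 ± 0.77 (adjusted p = 0.0856), and DESeq2 gave a call (2.65, adjusted p = 0.00254), as did leaving out WT 11 (4.36, adjusted p = 0.0216). Without WT 40 the value was 1.69 (adjusted p = 0.283).

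In SW480, *DKK1* held 422 to 543 normalized counts in the WT and 601 to 1165 in the KO libraries. These did not overlap, but the log2 fold change of 0.73 ± 0.19 (adjusted p = 0.00881) was below that of a call, except without KO 17 (1.06, adjusted p = 1.1e-04). In HCT116 the WT clones lay apart, with 6206 and 5036 in WT 4, 19633 and 16774 in WT 6, and 13542 to 21289 in the KO libraries. The groups overlapped there (log2 fold change 0.75 ± 0.46, adjusted p = 0.318), and the value was 1.60 (adjusted p = 0.00122) without WT 6 and −0.096 without WT 4. *PRKG1-AS1*, which averaged 22.5 normalized counts, shares 227 exon bases with *DKK1* on the other strand.

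*DKK4* (ENSG00000104371) was listed at 0 in all 8 HT29 libraries and held at most 3.21 normalized counts in HCT116. In SW480 the WT libraries held 14.2, 7.35, 29.0 and 35.2, and all 4 KO libraries were at 0. Its WT mean of 21.4 was at least 7.61-fold higher than the value of 3 reads per library, and *DKK4* was too low for the test in every line.

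The clones within a genotype were compared next, since the rounds of a clone are not independent cell lines. Among HT29 WT clones, *NKD2*, *DKK1* and *TRABD2A* differed, in a comparison that called 7.58% of all genes. *NKD2* was lower (−3.79 ± 0.64 log2) in WT 11 than in WT 40, whereas *DKK1* (2.67 ± 0.35) and *TRABD2A* (1.96 ± 0.26) were higher. Among HT29 KO clones, where 12.5% of genes were called, *AXIN2* (−2.83 ± 0.27) and *DKK1* (−1.58 ± 0.35) were lower in KO 28 than in KO 38.

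In HCT116, 1.44% of genes differed between WT clones. *RNF43* was higher in WT 4 than in WT 6 (1.12 ± 0.20 log2), and *DKK1* (−1.70 ± 0.15) and *TRABD2A* (−1.20 ± 0.27) were lower. Between the KO clones of HCT116, where 3.28% of genes were called, *TRABD2A* differed (−1.67 ± 0.27, KO 44 minus KO 47). In SW480, no member was called between the WT clones and 1.97% of genes were. At an unadjusted p below 0.05 these WT clones differed in *RNF43*, *APCDD1* and *TRABD2A*, with log2 differences within ±0.44. Between the SW480 KO clones, with 4.61% of genes called, *NKD2* (−2.93 ± 0.23), *NOTUM* (−1.52 ± 0.31) and *APCDD1* (−2.24 ± 0.08) were lower in KO 17 than in KO 21. *NOTUM* lay at or below 8.64 normalized counts in both of these clones.

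Whether the KO effect differed between lines was tested directly, as the difference of 2 log2 fold changes in 1 fit over the 24 libraries. Between HT29 and HCT116, 5.11% of genes differed, among them *RNF43* (4.77 ± 0.37, adjusted p = 1.4e-08) and *TRABD2A* (−4.65 ± 0.64, adjusted p = 5.6e-05). Between HT29 and SW480, 9.53% of genes differed, with *RNF43* (2.97 ± 0.37, adjusted p = 5.2e-06), *ZNRF3* (1.22 ± 0.18, adjusted p = 3.8e-05) and *TRABD2A* (−6.48 ± 0.64, adjusted p = 2.0e-07) among them. *NKD2* was not called for HT29 against SW480 (2.86 ± 1.12, adjusted p = 0.0973).

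Between HCT116 and SW480, 8.1% of genes and 5 members differed. *NOTUM* (7.77 ± 0.80), *NKD1* (5.19 ± 0.97), *NKD2* (3.61 ± 1.12) and *ZNRF3* (1.72 ± 0.18) fell more in SW480, and *RNF43* (−1.80 ± 0.37) fell more in HCT116. On clone means the calls of *NKD1* (adjusted p = 0.136), *NKD2* (0.424) and *RNF43* (0.154) between these lines were lost, as was that of *TRABD2A* between HT29 and HCT116 (0.117). The *NKD2* call was also lost when any 1 WT library of either line, KO 44A, KO 47A or KO 47B of HCT116, or KO 17A or KO 17B of SW480 was left out (0.0532 to 0.0860). *AXIN2* was not called in any pair, with differences of 1.56 ± 0.69, 1.04 ± 0.69 and −0.52 ± 0.69, except between HT29 and HCT116 without KO 28A (2.12, adjusted p = 0.0250). These p-values do not show that the effects were equal. *DKK1* came to be called for HT29 against HCT116 without WT 11A or WT 11B (2.73 and 2.71), and for HT29 against SW480 without these or KO 28B (2.61 to 2.75). *NKD2* came to be called for HT29 against SW480 without WT 40A, WT 40B or SW480 KO 21B (adjusted p = 0.0297 to 0.0493). *TRABD2A* came to be called for HCT116 against SW480 without HT29 WT 11A or HCT116 WT 4A, KO 47A or KO 47B (adjusted p = 0.0318 to 0.0484).

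**Figure D3:**
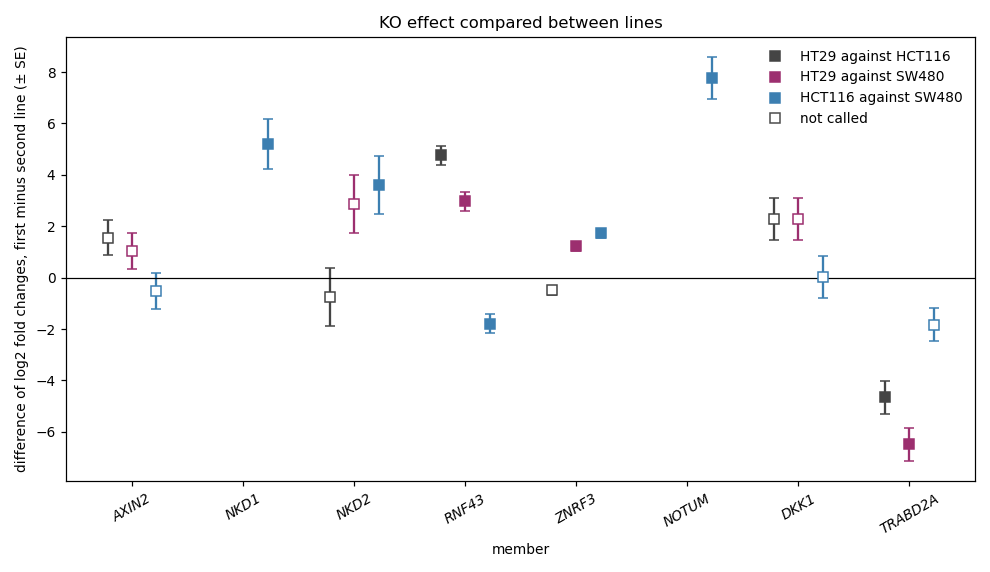
Difference of the log2 fold changes (KO over WT) between 2 lines, first minus second, with its standard error, for the members tested in both lines of a pair. Filled squares were called. *RNF43* lies at 4.77 and 2.97 for HT29 against HCT116 and SW480, and *TRABD2A* at −4.65 and −6.48.

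Averaged over the 3 lines on clone means, *AXIN2* (−4.56 ± 0.40 log2, adjusted p = 5.8e-04), *RNF43* (−2.57 ± 0.21, adjusted p = 3.6e-04), *ZNRF3* (−1.38 ± 0.08, adjusted p = 7.3e-05) and *TRABD2A* (−1.58 ± 0.40, adjusted p = 0.0390) were lower in KO cells, against 0.752% of the 13028 genes tested in every line. Of all genes, 2.63% were higher, and no member was by limma, *DKK1* having an unadjusted p of 0.0180. The averages of *RNF43* and *TRABD2A* combine a call with no call in HT29 for the former and with a rise in SW480 for the latter, and the call of *TRABD2A* was lost without any 1 clone other than HT29 WT 40, HCT116 WT 4 and HCT116 KO 47 (adjusted p = 0.0516 to 0.116). An exact two-sided permutation of the clones within lines was computed for each of the 10 members, without adjustment for their number. The smallest p that the design allows, 0.00926, was reached by *AXIN2*, *ZNRF3* and *NOTUM*. This test used no filter, and *NKD1*, *NOTUM*, *APCDD1* and *DKK4* entered it with HT29 values too low for the test within that line. The same held for *APCDD1* in HCT116 and for *DKK4* in HCT116 and SW480. *NKD1* and *DKK1* had p = 0.0278 and *RNF43* p = 0.0370 in this exact test, with *DKK1* higher in KO clones. *TRABD2A*, which limma called, had an exact p of 0.241, and the exact p was 0.204 for *NKD2*, 0.278 for *APCDD1* and 0.167 for *DKK4*.

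WT levels of the members differed widely between the lines. *AXIN2*, *NKD1*, *NOTUM* and *APCDD1* were higher in SW480 than in both other lines, *DKK1* was higher in HCT116 than in both others, and *ZNRF3* was lower in HCT116 than in both others. Of 9 members tested, 8 were called between HT29 and HCT116, 5 between HT29 and SW480, and 7 between HCT116 and SW480. Of all genes tested, 37.5%, 40.1% and 40.2% were called in these pairs. The filter for these tests took the WT libraries of all lines together, so a member could enter through a line where it was high. *APCDD1* entered through SW480 alone and is among the calls of every pair. *NKD1* and *NOTUM*, too low for the KO test in HT29, are also among the calls of every pair. The log2 difference between HT29 and SW480 was −4.10 ± 0.18 for *AXIN2*, −9.73 ± 0.71 for *NKD1*, −7.02 ± 0.62 for *NOTUM* and −2.50 ± 0.80 for *NKD2*. On the HT29 side *NKD1* held 89 and 29 reads in WT 11 and 6 and 3 in WT 40. *NOTUM* held 2 and 4 reads in WT 11 and 35 and 13 in WT 40. The sizes of these 2 differences thus rest in part on values near the floor. *APCDD1*, at 0 in all WT libraries of HCT116, was at least 14051-fold higher in SW480, taking 3 reads per library as the floor. In HT29 WT it held at most 5 reads in a library, and its call between HT29 and HCT116 rests on values near the floor.

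*ZNRF3* was higher in HT29 than in HCT116 (2.05 ± 0.10 log2, adjusted p = 1.2e-09) and showed a log2 difference of −0.09 ± 0.10 from SW480 (adjusted p = 0.468). *RNF43* was higher in HT29 than in HCT116 by 1.30 ± 0.25, and its difference from SW480 was 0.46 ± 0.25 (adjusted p = 0.123). *DKK1* in HCT116 exceeded SW480 by 4.34 ± 0.70 on the log2 scale, and the difference of HT29 minus HCT116 was −4.27 ± 0.70. *TRABD2A* exceeded HCT116 in HT29 by 2.54 ± 0.49, and was lower in HCT116 than in SW480 (−1.39 ± 0.49), which was lost on clone means (adjusted p = 0.136) and without WT 4A or WT 4B of HCT116 or of SW480 (0.0553 to 0.0776). The differences of *NKD2* between HT29 and HCT116 (−2.75 ± 0.80) and SW480 were likewise lost on clone means (0.0874 and 0.109).

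Levels of different members were compared per kb of annotated exons. In HT29 WT libraries *RNF43* (627 ± 64.2 normalized counts per kb, SD, n = 4) and *ZNRF3* (398 ± 52.6) led, while *DKK1* (346 ± 285) overlapped both. *TRABD2A* (153 ± 109) and *AXIN2* (130 ± 15.1) followed and overlapped each other. In HCT116, *DKK1* (5364 ± 3320) was far above *RNF43* (273 ± 119), and *ZNRF3* (95.5 ± 4.88), *NKD2* (88.9 ± 9.64) and *AXIN2* (83.0 ± 22.8) could not be ordered beyond their spread. In SW480 the order was *APCDD1* (6606 ± 615), *AXIN2* (2214 ± 103) and *NKD1* (841 ± 50.7), followed by *RNF43* (459 ± 79.7), *NOTUM* (441 ± 77.8) and *ZNRF3* (421 ± 27.0), which overlapped. The order of *AXIN2* over *NKD1* rests on their annotated exon lengths, 5197 and 17359 bases. Before division by length *NKD1* was the higher, with means of 14593 against 11508 normalized counts. The annotation used for counting is not given, so these lengths may not match the bases counted.

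**Figure D4:**
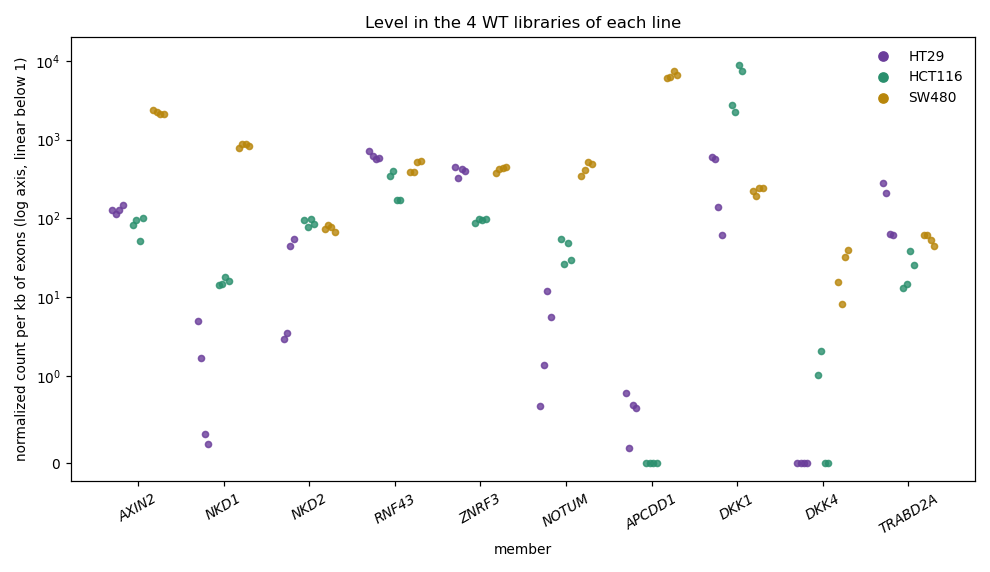
Normalized counts per kb of exons in the 4 WT libraries of HT29, HCT116 and SW480 for each member, on an axis that is logarithmic above 1 and linear below. Each point is 1 library. *APCDD1* spans the widest range, from 0 in HCT116 to a mean of 6606 in SW480, while *RNF43* stays between 171 and 717 in all 3 lines.

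Some KO levels of SW480 remained within the WT range of another line. *AXIN2* in SW480 KO cells, at 356 to 591 normalized counts, overlapped with HCT116 WT cells at 266 to 531. *NKD1* in SW480 KO cells, at 149 to 309, overlapped with HCT116 WT cells at 251 to 317. *APCDD1* in SW480 KO cells, at 419 to 2108, was above all WT libraries of HT29 and HCT116. *RNF43*, in contrast, was lower in SW480 KO libraries, at 346 to 393, than in any WT library of the 3 lines. These values were set side by side without a test.

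Across the 24 libraries, with the mean of each line subtracted, the 5 genes of 13027 compared whose log2 values followed *AXIN2* most closely were *CTNNB1* (Pearson r = 0.967), *ADAM19* (0.915), *CTR9* (0.914), *GTF2E1* (0.899) and *SMARCB1* (0.884). The 24 points share clones and genotypes, and the correlations are descriptive. *ADAM19*, which encodes a metalloprotease, was lower in KO cells of all 3 lines, with log2 fold changes of −2.41, −3.61 and −2.47 in HT29, HCT116 and SW480. *CTR9*, a subunit of the PAF1 complex, had −0.54, −0.87 and −1.02, and was called in SW480. Of the other members, *RNF43* (r = 0.841) and *ZNRF3* (0.822) followed *AXIN2* most closely, and *DKK1* (−0.492) ran opposite to it.

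Other components of the pathway were counted in fixed lists. Of 20 other known WNT target genes, 16, 13 and 15 were tested in HT29, HCT116 and SW480, and 3, 3 and 7 of them were lower and 0, 2 and 1 higher in KO cells, with a median log2 fold change of −1.09, −0.71 and −1.09. In HT29 the stem cell receptor *LGR5* (−4.36 ± 0.90), *TCF7* (−1.96 ± 0.32) and *EPHB2* (−1.93 ± 0.32) fell. In HCT116 *BMP4* (−4.34 ± 0.58) fell, and *SOX9* (1.40 ± 0.14) and *CD44* (1.25 ± 0.16) rose. In SW480 the transcription factor genes *SP5* (−8.23 ± 0.41) and *ASCL2* (−7.86 ± 0.47) and the receptor gene *TNFRSF19* (−5.55 ± 0.25) showed the largest changes.

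Among 17 secreted or membrane-bound WNT antagonists outside the 10 members, 1 of 5 tested was lower and 1 higher in HT29, none of 2 was called in HCT116 (2 had an unadjusted p below 0.05 and DESeq2 called 0), and 1 of 10 was lower and 6 higher in SW480. *SOSTDC1*, an antagonist of BMP and WNT ligands, fell in HT29 (−4.35 ± 0.62) and rose in SW480 (4.52 ± 0.42). *APCDD1L*, related to *APCDD1*, rose in HT29 (4.55 ± 0.72) and SW480 (3.93 ± 0.44), and *TRABD2B*, the paralog of *TRABD2A*, rose in SW480 (4.26 ± 0.40). Their median log2 fold change was −0.41, −0.49 and 1.94 in HT29, HCT116 and SW480.

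Of 15 WNT receptors and Dishevelled genes, 13, 13 and 14 were tested. By limma none was called in HT29 (0 at an unadjusted p below 0.05, and 0 by DESeq2), *FZD1* was higher in HCT116 (1.16 ± 0.26) and in SW480 (1.55 ± 0.14), and *FZD8* was lower in SW480 (−1.78 ± 0.26). None of 7 destruction complex genes outside the members was called in any line by limma or DESeq2, with 0, 1 and 3 at an unadjusted p below 0.05, and their median log2 fold change was −0.30, −0.09 and −0.05. Of 7 R-spondins and LGR receptors, 3, 2 and 2 were tested and only *LGR5* in HT29 was called by limma, whereas DESeq2 called all 3 in HT29. Among the 7 epithelial markers, *CDH1* was higher in HCT116 KO cells (1.17 ± 0.13) and *CDX2* lower in SW480 KO cells (−3.49 ± 0.36). Of the markers of other cell types, *COL1A2* (−5.77 ± 0.43) was lower and *VWF* (2.98 ± 0.35) higher in SW480 KO cells, beside the changes of 8 members in that line, and their part in those changes was not tested.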

How the data were processed

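RNA-seq was performed on 24 libraries from 12 clones of HT29, HCT116 and SW480. According to the study's methods, TruSeq libraries, which do not mark strand, were aligned to GRCh37 with STAR 2.7.5b and counted with featureCounts 2.0.1. The annotation used for counting is not given in the sources used here. The values deposited by the authors are signal, that is gene counts divided by the DESeq2 size factor of a library. The authors' tables of differentially expressed genes hold fold changes and p-values and were not used. Whole reads were recovered in 100% of values (tolerance 0.05) for the edgeR and DESeq2 alternatives.

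Fits used limma 3.58.1 (trend, robust) on log2(value + 1), with Benjamini-Hochberg adjustment over all genes tested. For KO against WT and between clones, genes had to reach a value of 10 in 4 or more of a line's 8 libraries. The mean over the lines took genes that passed this line filter in every line. WT levels were tested in 1 fit over the 12 WT libraries, with genes reaching 10 in 4 or more of these 12 (17205 genes). The fit for differences of KO effects took genes reaching 10 in 4 or more of the 24 libraries. Each pair was then adjusted over the genes that passed the line filter in both lines. The other tools were edgeR 4.0.16, DESeq2 1.42.0, R 4.3.3 and Python 3.11.15. Exon lengths and overlaps came from GENCODE v44 mapped to GRCh37. Tests were run on simulated data with known changes, independent libraries and no spread between clones. Such data cannot check p-values that count both rounds of a clone, or calls of members near the floor. Depth bounds precision through counting error only. The members, gene lists and tests were chosen with earlier results of these data known. Genes were named by rule: all members, *CTNNB1*, up to 3 called genes per list and line with the largest change, and the 5 genes most correlated with *AXIN2*. *COL1A1*, *PTPRC*, *CD3E*, *KRT8*, *KRT18*, *EPCAM*, *CDX1*, *CDX2*, *VIL1* and *CDH1* were named from the marker lists after their values had been seen.

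The alternatives were pseudocounts of 0.1 and 5, other filters, TMM and RLE normalization, edgeR, DESeq2, round as a block, clone as a random effect, clone means, and leaving out libraries or clones. Rounds A and B are numbers shared by the clones. Correlations of the round differences between pairs of clones ran from −0.309 to 0.424 in HT29 (2 of 6 above 0.1), 0.182 to 0.374 in HCT116 (6 of 6) and −0.0411 to 0.127 in SW480 (1 of 6). All pairs of clones shared a round difference in HCT116 only, while the highest single correlation was in HT29.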

Additional observations from a re-analysis of the deposited data

Results flagged for a closer look

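Within groups of 4 libraries, 4 of 56 examined had a library farther from the others than the 95% limit of Dixon's test. Chance gives about 1 in 20 for 4 independent, normally distributed values. The libraries of a group are 2 clones with 2 rounds each, so this rate need not hold here. *RNF43* was 6346 normalized counts in HT29 KO 38A against 3089 to 3641 in the other KO libraries. *ZNRF3* was 551 in SW480 KO 21A, the other KO libraries lying at 574 to 579. In HCT116 KO 47A, *APCDD1* was 5.35 and *DKK4* 3.21, and both were at 0 in the other 3 KO libraries. With those 3 at 0, any value above 0 passes the limit, and these values rest on 5 and 3 reads.

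The KO effect differed between lines for 6 members by a test of the difference itself, given as log2 fold change in the first minus the second line. The same test called 5.11% of all genes for HT29 against HCT116, 9.53% for HT29 against SW480 and 8.1% for HCT116 against SW480. *RNF43* differed between HT29 and HCT116 (4.77), HT29 and SW480 (2.97) and HCT116 and SW480 (−1.80). *TRABD2A* differed between HT29 and HCT116 (−4.65) and HT29 and SW480 (−6.48). *ZNRF3* differed between HT29 and SW480 (1.22) and HCT116 and SW480 (1.72). *NKD1* (5.19), *NKD2* (3.61) and *NOTUM* (7.77) differed between HCT116 and SW480. With limma on clone means, the calls of *NKD1*, *NKD2* and *RNF43* between HCT116 and SW480 were lost (adjusted p = 0.136, 0.424 and 0.154). The call of *TRABD2A* between HT29 and HCT116 was also lost (0.117).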

How the results depend on the processing

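In HT29, the 3 members lower in KO became 1 with the clone as a random effect and 0 with clone means within the line, where limma called 0 of 14921 genes and 849 had an unadjusted p below 0.05. Leaving out a library or clone gave 1 to 3. With DESeq2 1 member was higher in place of 0, and 0 to 1 with libraries or clones left out. In HCT116, the 2 lower members became 1 when every library had to reach 10 (*AXIN2* was then untested), and 2 to 4 with libraries or clones left out, while 0 to 1 were higher. In SW480, the 7 lower members stayed 7 in each of these leave-outs. They became 6 on clone means with the spread pooled over lines, and 5 when every library had to reach 10 (*NKD2* and *NOTUM* were then untested). Without a filter beyond a value above 0 in 1 library they became 8, as limma then called *DKK4* (log2 fold change −4.27, adjusted p = 3.7e-06). The 1 higher member became 0 on clone means with the spread pooled over lines and 1 to 2 with libraries or clones left out. For the mean over the lines, 1 member in place of 0 was higher with the clone as a random effect and with the round as a block, both fitted on the single libraries in place of clone means, and 0 to 1 with a clone left out. On clone means, members whose KO effect differed went from 2 to 1 between HT29 and HCT116 and from 5 to 2 between HCT116 and SW480. The causes of these changes were not tested, apart from members that a filter let in or left untested.

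Directions turned for values that were not called with all libraries. *RNF43* in HT29 was −0.022 with TMM and ran from −0.26 to 0.28 with libraries or clones left out. Under the same leave-outs, *NKD2* ran from −2.43 to 1.36 in HT29 and from −0.080 to 0.49 in HCT116. In HCT116 *DKK1* ran from −0.10 to 1.60 and *TRABD2A* from −1.47 to 0.20. The WT difference between HT29 and SW480 ran from −0.39 to 0.70 for *DKK1* and from −0.15 to 0.0056 for *ZNRF3*, and the difference of the *DKK1* KO effect between HCT116 and SW480 from −0.31 to 0.34.

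With the round as a replicate block, 2 members were lower in HT29, where *AXIN2* lost its call (adjusted p = 0.0630), 2 in HCT116 and 7 in SW480. Within a line the block changed no other call of a member. For the mean over the lines, the fit with the block also took the 24 single libraries in place of clone means, and these 2 changes together added *DKK1* (adjusted p = 0.00227) and *NKD2* (0.0498) to the calls. With KO 38B left out, the 3 HT29 calls held (*AXIN2* adjusted p = 0.0347, *ZNRF3* 0.0171, *TRABD2A* 0.00412). Few reads lay behind some values. *DKK4* held at most 3 reads in a library outside SW480, and *APCDD1* at most 17 in HT29 and 5 in HCT116. *NOTUM* held at most 35 in HT29 WT, 3 in HT29 KO and 9 in SW480 KO libraries.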
